A study of Mus musculus with 2 samples.

Results

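The Hox genes encode homeodomain transcription factors, and 38 of them were described here among the 21938 protein-coding genes of the mouse annotation. They were chosen by name, as protein-coding genes called Hoxa, Hoxb, Hoxc or Hoxd with a number. The rule used no measured value, but it was set with earlier results of these data known. HoxA contributed 10 genes, HoxB 10, HoxC 9 and HoxD 9. Open chromatin was measured by DNase-seq, which reads where the enzyme DNase I can cut DNA in nuclei. The tissue was the whole adrenal gland of female B6CASTF1/J mice aged 36 days, the hybrid offspring of C57BL/6J and CAST/EiJ parents. Both libraries, replicate 1 and replicate 2, belong to this 1 group, and the labels number their animals differently but give both the same donor record. They were taken as 2 animals, and the SDs given measure only the spread between these 2 libraries. With no second condition no test between groups was possible, and every value is given per library.

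Hox genes lie in clusters in which the order of the genes follows the order in which they act along the axis from head to tail. Genes at the 3′ end (low paralogue numbers) pattern the hindbrain and neck, middle genes the chest, and genes at the 5′ end (high numbers) the loins, tail, limb ends and urogenital tract. Polycomb proteins keep the clusters silent where they are not needed, trithorax proteins keep them active, and adult tissues retain part of the embryonic pattern. HOX proteins bind DNA together with PBX, MEIS and PKNOX partners, and a complex of this kind drives a fetal adrenal enhancer of Nr5a1, the gene of the steroidogenic factor SF-1.

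The peak lists held 157595 peaks in replicate 1 and 166206 in replicate 2, and peak height is the authors' signal, whose scaling the sources used here do not give. Promoter height here is the height of the tallest peak that reaches within 1 kb of any annotated transcription start site (TSS) of a gene, and 0 where there is none. The tissue label was checked with marker genes. Of all protein-coding genes, 68.6% (replicate 1) and 69.6% (replicate 2) had a height above 0. In lists as short as these, counts near such shares cannot tell the adrenal gland from another tissue, so they are given as a description. Of 6 cortex markers 5 had a promoter peak in each library, among them Nr5a1 at 6.62 in replicate 1 and 11.7 in replicate 2, and Hsd3b1 was at 0 in both. The 4 medulla markers Th, Dbh, Chga and Chgb had a peak in each library. Peaks were also present at 3 of 4 capsule and stroma markers in each library, at 3 and 4 of 4 endothelial, 2 and 2 of 3 adipocyte and 1 and 2 of 3 macrophage markers. Of 5 kidney markers 2 had a peak in each library, with summed heights of 1.18 and 1.86 and with Slc34a1, Umod and Cubn at 0. Which cells of the gland carry a given Hox peak, and whether a low peak stands for few open cells or for weak opening in many, cannot be told apart in whole tissue.

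The tallest promoter peaks of HoxA and HoxD outside untranslated sequence show which DNA was open. They are printed 5′ to 3′ on the strand of the gene, with the footprints of replicate 1 in capitals. Footprints are short stretches inside open chromatin that are protected from cutting, as a bound protein would protect them. The Hoxa4 peak lies at chr6:52191861-52192040 on the minus strand and the Hoxd10 peak at chr2:74691701-74691880 on the plus strand. Positions and letters are those of the C57BL/6J reference, assembly GRCm38.p6 (mm10), so that CAST/EiJ letters are not shown. Both peaks lie upstream of their TSS, centred 198 and 133 bp before it in replicate 1.
Hoxa4 promoter peak: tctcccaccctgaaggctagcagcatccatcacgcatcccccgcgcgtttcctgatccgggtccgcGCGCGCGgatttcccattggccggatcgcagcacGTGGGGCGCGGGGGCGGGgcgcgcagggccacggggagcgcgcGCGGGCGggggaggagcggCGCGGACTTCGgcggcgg
Hoxd10 promoter peak: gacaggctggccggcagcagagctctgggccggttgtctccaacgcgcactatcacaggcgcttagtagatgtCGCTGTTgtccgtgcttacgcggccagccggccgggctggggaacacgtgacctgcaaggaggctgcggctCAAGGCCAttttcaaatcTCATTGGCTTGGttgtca
The Hoxa4 peak was the richer in G and C, at 76.1% with 30 CG dinucleotides in its 180 bp, and footprints of replicate 1 covered 23.9% of it. The Hoxd10 peak, also 180 bp wide, had 61.1% G and C with 13 CG dinucleotides, and 3 footprints of replicate 1 covered 15% of it. Replicate 2 had no footprint within 1 kb of the Hoxd10 TSS, so that these capitals rest on 1 library.

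Hox promoters were open about as often as those of all genes, but seldom tall. A promoter peak was present at 30 of the 38 genes in replicate 1 and at 30 in replicate 2, against 68.6% and 69.6% of all protein-coding genes. In both libraries 28 had one, against 67.4% of all genes. Neither library had one at 6 genes, against 29.3% of all genes. These were Hoxa11, Hoxc9, Hoxc11, Hoxc12, Hoxd11 and Hoxd12. In replicate 1 alone Hoxb1 (0.813) and Hoxd13 (0.533) had a peak, and in replicate 2 alone Hoxb3 (1.82) and Hoxb8 (1.81). The median promoter height of the 38 was 2.30 in replicate 1 and 3.61 in replicate 2, against 2.97 and 4.46 over all genes. By cluster, 9 of 10 HoxA, 7 of 10 HoxB, 6 of 9 HoxC and 6 of 9 HoxD genes had a peak in both libraries.

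**Figure D1:**
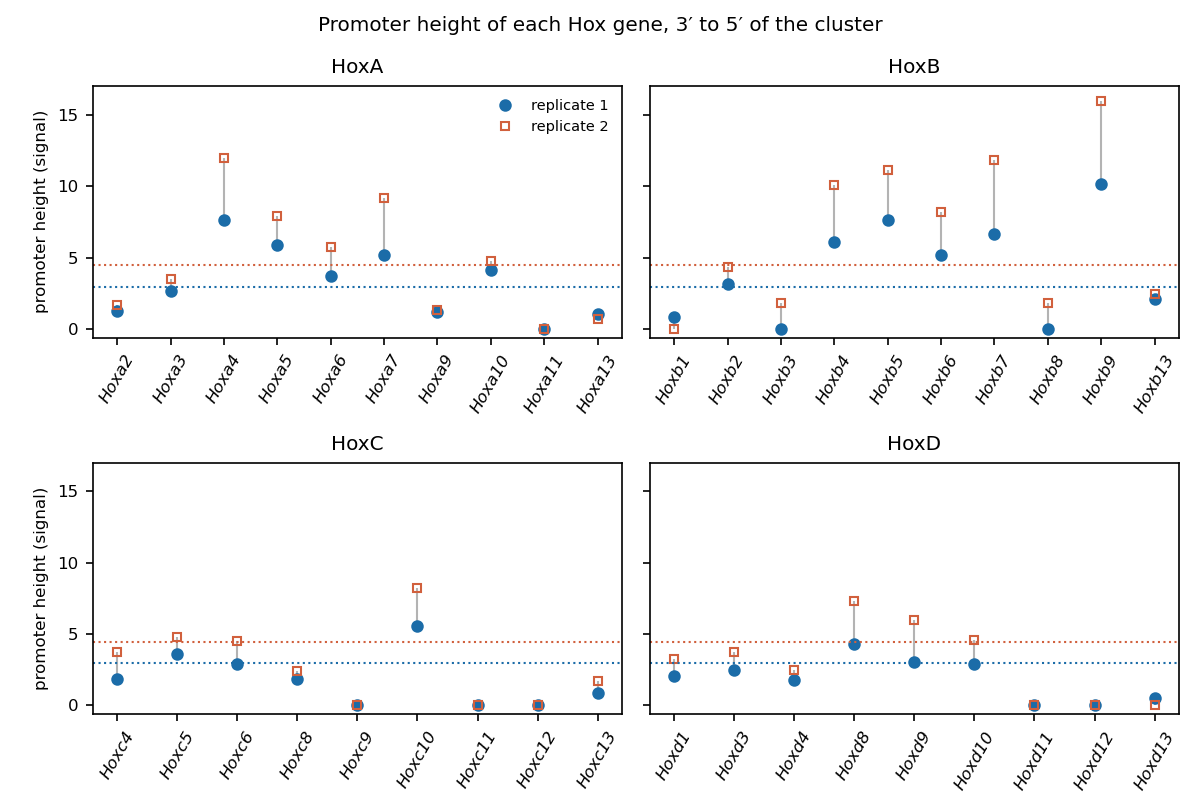
Promoter height (authors' signal, y axis) of each Hox gene in order of paralogue number (x axis), 1 panel per cluster, with filled circles for replicate 1, open squares for replicate 2 and dotted lines at the medians over all protein-coding genes (2.97 and 4.46). Hoxa4 to Hoxa7, Hoxa10, Hoxb4 to Hoxb7, Hoxb9, Hoxc5, Hoxc10, Hoxd8 and Hoxd9 lie above the line of their library in both, and both libraries are at 0 for Hoxa11, Hoxc9, Hoxc11, Hoxc12, Hoxd11 and Hoxd12.

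Paralogue groups 1 to 4, which pattern the hindbrain and neck, had a peak in both libraries at 9 of their 11 genes, with median heights of 2.04 and 3.50. Hoxa4 was the tallest of them, at 7.63 in replicate 1 and 11.96 in replicate 2 (9.80 ± 3.06, mean ± SD, n = 2). Hoxb4, known for its part in blood stem cells, stood at 6.10 and 10.1. The other group 4 genes were lower in both libraries, Hoxc4 at 1.86 and 3.77 and Hoxd4 at 1.78 and 2.48. Both libraries thus put Hoxa4 and Hoxb4 above Hoxc4 and Hoxd4, with no overlap. Hoxb2 reached 3.18 and 4.32, and Hoxa2, which shapes the second pharyngeal arch, 1.23 and 1.69. Hoxa3 and Hoxd3, which act in the neck and its glands, stood close together, at 2.63 and 3.50 and at 2.48 and 3.72. Both heights come from the middle of a cluster. The annotated TSS of Hoxa3 lies between those of Hoxa6 and Hoxa7, and the Hoxd3 peak lies between the TSS of Hoxd4 and Hoxd8. Both genes still count by paralogue number in the class medians and in the order of heights. Hoxd3 kept its values under the other window and TSS settings, while Hoxa3 had 6.03 and 7.29 with a 2 kb window and 1.44 and 1.89 when a peak counted only for the gene with the nearest TSS. Of the group 1 genes Hoxd1 had 2.04 and 3.24, and Hoxb1, which specifies a segment of the hindbrain, had 0.813 and no peak. The Hoxb1 peak of replicate 1 was centred 1054 bp from the TSS, at the edge of the window, and with a window of 2 kb Hoxb1 also had a peak of 1.03 in replicate 2.

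Paralogue groups 5 to 8, which act at chest level, had the highest medians of the 3 classes, with a peak in both libraries at 10 of 11 genes and heights of 4.34 and 7.29. The tallest were Hoxb5 and Hoxb7. Hoxb5 had 7.64 in replicate 1 and 11.1 in replicate 2, Hoxb7 6.63 and 11.8, and Hoxb6 5.20 and 8.20. In HoxA the 3 genes of these groups also stood above the medians of all genes in both libraries. Hoxa5, needed for lung and rib patterning, had 5.91 and 7.88, Hoxa7 5.20 and 9.17, and Hoxa6 3.69 and 5.70. In HoxC the heights were lower, 3.62 and 4.80 at Hoxc5, 2.87 and 4.53 at Hoxc6 and 1.85 and 2.42 at Hoxc8. Hoxd8, the HoxD gene of these groups, had 4.34 and 7.29, the tallest promoter of its cluster. Hoxb8 was the gene without a peak in 1 library, between the tall neighbours Hoxb7 and Hoxb9. Its peak of 1.81 in replicate 2 lay in a coding exon, centred 568 bp from its second annotated TSS. With a window of 500 bp or with the shorter list Hoxb8 had no peak in either library.

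Paralogue groups 9 to 13, which act in the loins, tail and urogenital tract, were split. Of their 16 genes 9 had a peak in both libraries and 6 in neither, and the medians were 0.981 and 1.04. Their median over both libraries, 1.08, fell to 0.266 with the shorter lists and to 0.133 with the principal TSS alone. Groups 9 and 10 were mostly open. Hoxb9 had the tallest promoter of all 38 genes, 10.2 in replicate 1 and 15.9 in replicate 2 (13.1 ± 4.07, mean ± SD, n = 2). Hoxd9 stood at 3.07 and 5.98 and Hoxa9, a gene of blood progenitors, at 1.20 and 1.34, and Hoxc9, which sets motor neuron identity at chest level, had no peak. The group 10 genes all had a peak, 5.53 and 8.23 at Hoxc10, 4.14 and 4.72 at Hoxa10, which is also needed in the uterus, and 2.89 and 4.62 at Hoxd10. Groups 11 and 12 gave the opposite picture, with no peak in either library at any of their 5 genes. With a window of 2 kb Hoxd12 had one in both, at 1.86 and 2.33. Hoxa11, Hoxc11 and Hoxd11 together are required to form the kidney, and Hoxc12 and Hoxd12 complete the list. In HoxA, HoxC and HoxD alike the promoters therefore went from a peak in both libraries at group 10 to none at group 11, and HoxB has no genes of groups 10 to 12. With the principal TSS alone this step was lost in HoxA, where Hoxa10 was then at 0 in both libraries. Group 13 came back at low heights. Hoxb13, which acts in the tail and prostate, had 2.13 and 2.47, and Hoxc13, a gene of hair and nails, 0.897 and 1.74. Hoxa13 had 1.07 and 0.733, and Hoxd13, a gene of the digits, 0.533 and no peak. With the shorter lists Hoxd13 had no peak in either library and Hoxa13 none in replicate 2.

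The order of the genes and the order of the heights were only loosely related. Across the genes of a cluster Spearman's rho of paralogue number with height was -0.47 in replicate 1 and -0.48 in replicate 2 for HoxA (10 genes), -0.54 and -0.54 for HoxC (9) and -0.48 and -0.51 for HoxD (9). In HoxB it was 0.27 and 0.37 (10 genes). Genes of a cluster share their library and are no replicates, so that these values describe the clusters and carry no p. The 3 tallest HoxB promoters were those of Hoxb9, Hoxb5 and Hoxb7 in replicate 1, and Hoxb9, Hoxb7 and Hoxb5 in replicate 2. The order of Hoxb5 and Hoxb7 is therefore not settled by these data.

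Where the peaks lay depended on the choice of TSS for some genes. In replicate 1 the tallest peak of the 30 genes was centred a median of 154 bp from the TSS it was assigned to, within 100 bp for 14 of them and within 300 bp for 23. When only the TSS of the principal transcript was used, Hoxa9, Hoxa10 and Hoxd4 had no peak in either library. Hoxb3 and Hoxb8 then had none in replicate 2. The peaks of these genes were those within 1 kb of another start. The TSS of another annotated gene lay within 1 kb of the tallest peak at 7 genes. It belonged to an antisense or noncoding transcript at Hoxa2 (Hoxaas2), Hoxa13 (Gm27280), Hoxd3 (Hoxd3os1) and Hoxd9 (Gm28793), to the microRNA gene Mir615 at Hoxc5, and to the protein-coding models Gm28308 at Hoxa3 and Gm28230 at Hoxd4. To which of the overlapping genes such a peak belongs cannot be told apart.

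Hox promoters are rich in CpG, the dinucleotide that marks promoters called CpG islands, and promoters of that kind are usually open in every tissue. CpG content was taken as the observed over the expected number of CG within 500 bp of the principal TSS, and all genes were put in 5 equal groups by it, quintile 1 the poorest and quintile 5 the richest. Of the 38 genes 5 fell in quintile 2, 12 in quintile 3, 12 in quintile 4 and 9 in quintile 5. Among all genes of quintiles 3, 4 and 5 a peak in both libraries was found at 87.1%, 96.9% and 98.9%. Of the 33 Hox genes there, 24 had one. No peak in either library was seen at 4.06% of all genes of quintiles 3 to 5 and at 6 of these 33 Hox genes. Hoxc9 and Hoxd12 lay in quintile 3, where 9.46% of all genes had no peak. Hoxa11 and Hoxc11 lay in quintile 4, where 1.94% had none, and Hoxc12 and Hoxd11 in quintile 5, where 0.775% had none. The CpG ratio was 0.914 at Hoxd11 and 0.891 at Hoxc12, close to the 0.919 of the open promoter of Hoxa4.

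Heights were also low for the CpG content. In both libraries 30 of the 38 genes were below the median of their own quintile, against 28.6% of all genes and 47.6% of the genes of quintiles 3 to 5. The medians of all genes were 4.29 and 6.58 in quintile 3, 8.68 and 13.03 in quintile 4 and 10.3 and 15.2 in quintile 5. In these quintiles Hoxb4, Hoxb9 and Hoxc10 were above the median in both libraries, and the other 30 below it in both. Even Hoxa4, second tallest of the 38 by its mean over the libraries, was below the median of its quintile. In quintile 2, where the median was 0 and 41.2% of all genes had a peak in both libraries, Hoxb2, Hoxb6, Hoxc4 and Hoxd4 had one. With them 7 Hox genes were above the median of their quintile in both libraries, against 39.4% of all genes. The CpG content belongs to the principal TSS, while the height is that at any TSS. With the principal TSS alone Hoxd4 had no peak in either library, nor had Hoxa9 of quintile 3 and Hoxa10 of quintile 4.

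**Figure D2:**
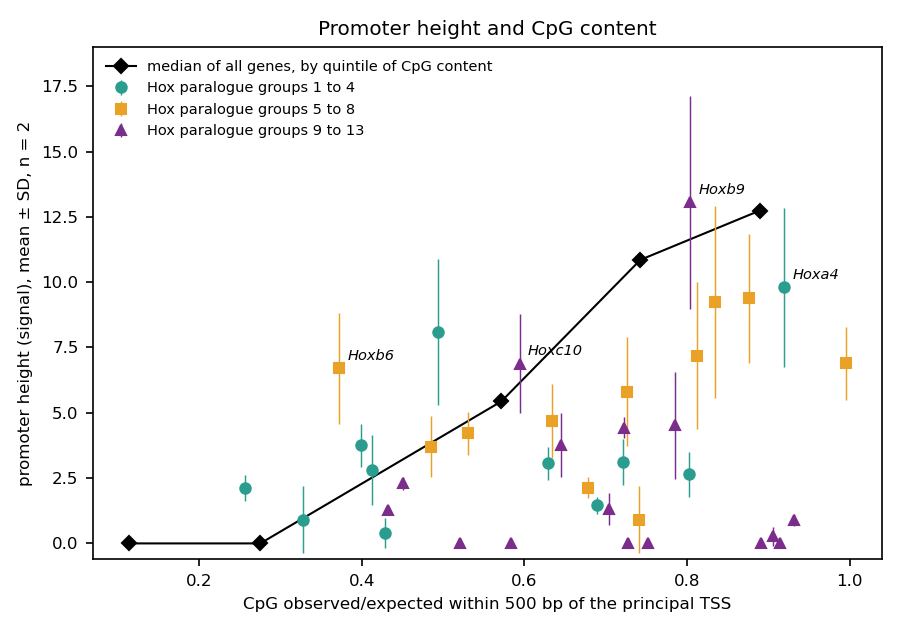
Promoter height (authors' signal, mean ± SD over 2 libraries, y axis) against the CpG observed/expected ratio (x axis) for the 38 Hox genes, with symbols for the 3 paralogue classes and black diamonds joined by a line for the median of all genes in each quintile of CpG content. Hoxb2, Hoxb4, Hoxb6, Hoxb9, Hoxc4, Hoxc10 and Hoxd4 lie above the line, most other Hox genes lie under it, and a row of genes of groups 9 to 13 lies at 0.

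Footprints and false discovery rates are further readouts of the same promoters. Within 1 kb of any TSS the 38 genes had a median of 3.5 footprints in replicate 1 and 4 in replicate 2, against 4 and 4 over all genes. At least 1 footprint was found at 29 and 28 of the 38, against 66% and 66.9% of all genes. Hoxb9 had 9 in replicate 1 and 14 in replicate 2, Hoxd3 9 and 12, and Hoxa2 10 and 8. The genes of groups 11 and 12 had none. The number of positions within 1 kb of the principal TSS with a false discovery rate of at most 0.05 is a measure of how wide the opening is. Its median over the 38 was 341.5 bp in replicate 1 and 363.5 bp in replicate 2, against 593 and 675 bp over all genes, and at least 1 such position was found at 27 and 26 genes, against 67.1% and 68.1%. At Hoxb9 it was 797 bp in replicate 1 and the whole window of 2001 bp in replicate 2. Hoxb5 had 1126 and 787 bp, and Hoxa2, in spite of its low peak, 1281 and 584 bp. At Hoxc10, the tallest of its cluster, it was 357 and 365 bp, close to the median of the 38 genes in spite of its height.

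The clusters as a whole were dense in open sites. Measured between the outermost gene ends of the genes described here, HoxA (98.5 kb) held 33 peaks in replicate 1 and 29 in replicate 2, HoxB (173.9 kb) 66 and 99, HoxC (115.8 kb) 21 and 32, and HoxD (96.8 kb) 29 and 28. Per 10 kb this was 3.35 and 2.95 in HoxA, 3.79 and 5.69 in HoxB, 1.81 and 2.76 in HoxC and 2.99 and 2.89 in HoxD, where the genome without gaps had 0.595 and 0.628. HoxB was the densest and HoxC the sparsest cluster in each library. With the shorter lists HoxB was still the densest, but in replicate 2 HoxA (1.62) was sparser than HoxC (1.81). Peaks covered 8.69% and 11.8% of HoxB and 2.99% and 5.31% of HoxC, against 1.09% and 1.09% of the genome. Footprints followed, with 8.51 and 10.9 per 10 kb in HoxB, 8.23 and 6.40 in HoxA, 7.23 and 6.09 in HoxD and 3.54 and 4.58 in HoxC, against 1.12 and 1.13. In HoxB 52 of the 66 peaks and 80 of the 99 lay over 1 kb from any Hox TSS. In HoxA it was 14 of 33 and 14 of 29, in HoxC 11 of 21 and 20 of 32, and in HoxD 14 of 29 and 15 of 28. HoxB thus had the largest share of peaks over 1 kb from a Hox TSS in each library. Starts of other genes in the clusters were not taken into this count.

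**Figure D3:**
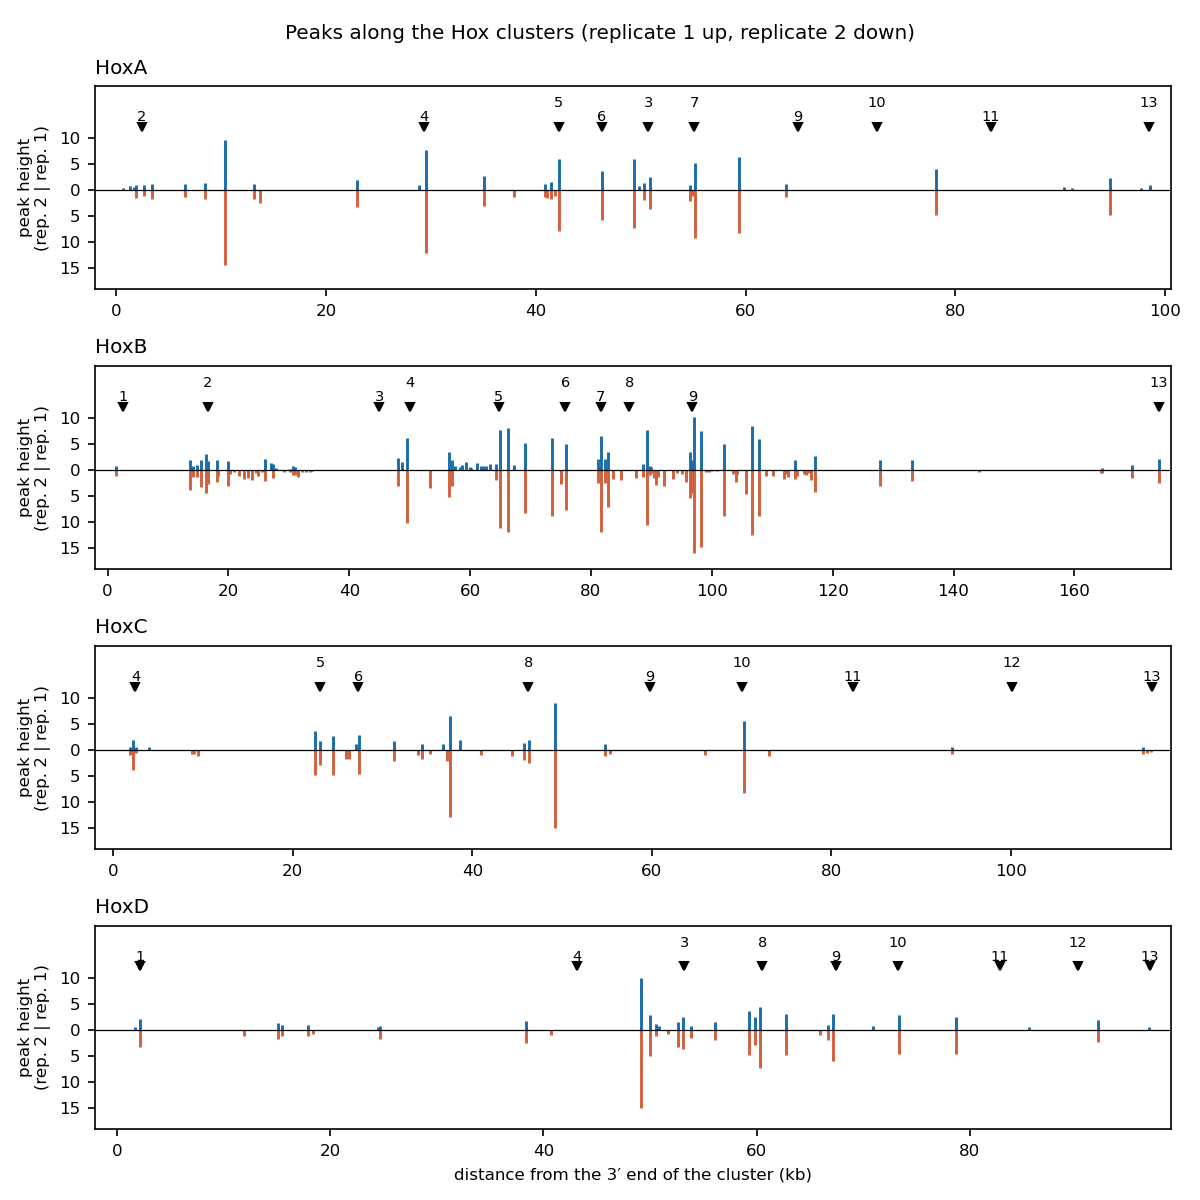
Peaks along each Hox cluster, with the distance from the 3′ end in kb on the x axis and the peak height (authors' signal) on the y axis, replicate 1 upward and replicate 2 downward; triangles with paralogue numbers mark the TSS of the principal transcript of each gene. Most tall peaks stand in the middle of the 4 clusters, and few peaks surround Hoxa11, Hoxc11, Hoxc12, Hoxd11 and Hoxd12.

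The space between neighbouring genes was far from even. Peaks were counted by their centre between the principal TSS of neighbours, and in these counts Hoxa3 and Hoxd3 stand upstream of their usual places because their principal transcripts start far 5′. Between Hoxa9 and Hoxa10 (7.57 kb) there was no peak in either library, and between Hoxc9 and Hoxc10 (10.24 kb) none in replicate 1 and 1 of 0.971 in replicate 2. From Hoxc11 to Hoxc12 (17.67 kb) each library had 1 peak, 0.523 and 0.706 high. Between Hoxd3 and Hoxd8 (7.31 kb), in contrast, 5 and 6 peaks were found, and 32.3% and 35.5% of the positions had a false discovery rate of at most 0.05. The longest stretch of HoxC without a peak, 23.1 kb in replicate 1, contained Hoxc11, and that of replicate 2, 21.1 kb, contained Hoxc12. In HoxA the longest were 14.1 kb and 16.4 kb, the first with starts of Hoxa9 and Hoxa10 and the second with starts of Hoxa10 and Hoxa11. In HoxB the longest, 31.3 and 19.99 kb, lay in the 77.1 kb between Hoxb9 and Hoxb13 and held no Hox TSS. In HoxD the longest, 13.4 and 13.5 kb, held starts of Hoxd3 and Hoxd4.

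Within HoxB the libraries differed in where the small peaks were. Between Hoxb4 and Hoxb5 (14.76 kb) replicate 1 had 15 peaks and replicate 2 had 4, and 35.9% and 7.41% of the positions had a rate of at most 0.05. Between Hoxb8 and Hoxb9 (10.45 kb) it was the reverse, with 7 and 16 peaks and 15.9% and 47.2%. The same held between Hoxb9 and Hoxb13, with 11 and 32 peaks, and between Hoxb2 and Hoxb3 (28.3 kb), with 11 and 26. The tallest peaks of these intervals were higher in replicate 2 throughout, 5.21 against 3.56 between Hoxb4 and Hoxb5 included. The cause of the uneven counts was not tested.

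Some of the tallest open sites lay away from Hox promoters. The 2 tallest peaks of each cluster over 1 kb from any Hox TSS are given here. In HoxD a peak in an exon of the antisense gene Hoxd3os1, 4024 bp from the nearest TSS of Hoxd3, had 9.97 in replicate 1 and 14.99 in replicate 2 (12.5 ± 3.55, mean ± SD, n = 2), above any HoxD promoter in each library. In HoxC the peak between Hoxc8 and Hoxc9 had 9.04 and 14.996 and that between Hoxc6 and Hoxc8 6.58 and 12.8, both above Hoxc10. In HoxA a peak in untranslated sequence of Hoxa3 had 9.58 and 14.4, above Hoxa4, and a peak between Hoxa7 and Hoxa9 had 6.45 and 8.16, below Hoxa4. In HoxB a peak 1356 bp from the TSS of Hoxb9 had 7.47 and 14.7 and a peak in an exon of the noncoding gene Gm53 8.41 and 12.4, both below Hoxb9. The second of HoxD, between Hoxd8 and Hoxd9, was below Hoxd8, at 3.13 and 4.72.

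The sequences of 5 peaks away from the Hox promoters are shown. They hold a CTCF or SF-1 motif, or, for HoxC, the peak is the tallest of its cluster. They are printed on the plus strand of mm10. In 3 of them the capitals are the core letters of CTCF, the protein that anchors chromatin loops and holds boundaries inside Hox clusters. They are the peak between Hoxa7 and Hoxa9 (chr6:52221721-52221920), the Hoxd3os1 peak (chr2:74715861-74716040) and a peak of 1.86 and 2.33 between Hoxd12 and Hoxd13, 1842 bp from the Hoxd12 TSS (chr2:74673081-74673260). In the HoxC peak (chr15:102987521-102987700) they are a shorter pattern, AGNNGGCNC, chosen after the footprints had been read. This pattern shares the letters AGNNGGC with the end of the core and runs past it. The HoxC peak did not hold the core itself. In the last (chr6:52257041-52257220) they are the SF-1 letters CAAGGTCA.
Hoxa7 to Hoxa9 peak: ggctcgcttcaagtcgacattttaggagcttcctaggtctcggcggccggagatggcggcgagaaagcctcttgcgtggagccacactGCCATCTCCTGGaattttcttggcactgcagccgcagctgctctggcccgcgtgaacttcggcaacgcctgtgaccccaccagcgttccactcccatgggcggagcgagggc
Hoxd3os1 peak: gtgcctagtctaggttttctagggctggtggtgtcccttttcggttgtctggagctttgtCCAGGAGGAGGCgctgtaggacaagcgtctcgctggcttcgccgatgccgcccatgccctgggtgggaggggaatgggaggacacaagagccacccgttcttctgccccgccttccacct
Hoxd12 to Hoxd13 peak: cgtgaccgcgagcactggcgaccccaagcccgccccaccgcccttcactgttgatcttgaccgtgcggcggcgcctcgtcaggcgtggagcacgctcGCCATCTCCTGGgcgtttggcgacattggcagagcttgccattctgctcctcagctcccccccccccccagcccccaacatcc
Hoxc8 to Hoxc9 peak: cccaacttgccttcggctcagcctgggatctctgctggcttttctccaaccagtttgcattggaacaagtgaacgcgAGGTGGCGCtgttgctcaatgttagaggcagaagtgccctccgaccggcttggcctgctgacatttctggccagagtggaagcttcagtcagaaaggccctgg
Peak near Hoxa13: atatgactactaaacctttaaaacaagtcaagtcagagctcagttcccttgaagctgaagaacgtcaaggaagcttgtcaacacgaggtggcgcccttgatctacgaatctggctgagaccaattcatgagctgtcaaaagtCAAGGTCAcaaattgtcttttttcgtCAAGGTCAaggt

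The core in the HoxA peak and in the peak between Hoxd12 and Hoxd13 was the same 12 letters, GCCATCTCCTGG, on the minus strand, and the match in the Hoxd3os1 peak was on the plus strand. In each of the 5 peaks a run of capitals overlapped a footprint of replicate 1 by at least 1 bp. For the HoxC peak this carries no weight, because its letters were chosen after the footprints had been read. In replicate 2 the core overlapped a footprint in the HoxA and Hoxd3os1 peaks and not in the peak between Hoxd12 and Hoxd13. The promoter peak of Hoxa10, at 4.14 and 4.72, also held the core, which overlapped a footprint in both libraries. The peak near Hoxa13 lies in an exon of the noncoding gene 9530018H14Rik, 3671 bp from the TSS of Hoxa13, and its height was 2.40 in replicate 1 and 4.78 in replicate 2. It held CAAGGTCA at 2 places and was the only peak of the 4 clusters in either library with this match. The same peak also held the letters AGNNGGCNC, left in lower case above, which overlapped a footprint in both libraries.

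In the peaks of the 4 clusters, 149 in replicate 1 and 188 in replicate 2, 4 motifs were counted beside their share in all peaks. The CTCF core was in 3.36% and 3.19% of the cluster peaks and in 7.82% and 7.72% of all peaks. The HOX and PBX letters TGATTNAT were in 7.38% (11 peaks) and 4.79% (9 peaks), against 3.51% and 2.72%. The promoter peak of Hoxb2, at 3.18 and 4.32, held them in both libraries. The SF-1 letters were in 0.671% and 0.532%, against 4.44% and 4.03% of all peaks, which is 1 peak of the clusters in each library. A direct repeat of nuclear receptor elements, with the spacing that retinoic acid receptors prefer, was in 2.01% and 1.06%, against 0.687% and 0.641%. It was in the promoter peak of Hoxb6, at 5.20 and 8.20, and in an intron peak of Hoxa3, at 1.21 and 1.65, in both libraries. The shorter pattern AGNNGGCNC, which is not contained in the CTCF core, was in 29.5% and 24.5%, against 17.7% and 18.0%. Its letters were chosen after the footprints had been read, so that these shares are a description only. A match says that the letters are present, not that a protein was bound, and counts of this size move by 1 peak at a time.

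Most peaks of the clusters were found in both libraries. Of the 149 peaks of replicate 1, 111 (74.5%) overlapped a peak of replicate 2 by at least 1 bp, and of the 188 of replicate 2, 110 (58.5%) overlapped one of replicate 1. Over the genome the shares were 80.2% and 76.2%. HoxA (75.8% and 82.8%) and HoxD (79.3% and 82.1%) had high shares in both libraries, while HoxB (69.7% and 46.5%) and HoxC (81.0% and 53.1%) had many peaks of replicate 2 alone. Peaks seen in 1 library were low, with median heights of 0.799 in replicate 1 and 1.05 in replicate 2 and highest values of 2.02 and 4.49. Shared peaks had medians of 1.91 and 2.92.

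Shared peaks were taller in replicate 2. The median log2 ratio of replicate 2 to replicate 1 was 0.55 in the clusters, with quartiles of 0.32 and 0.68, and 0.38 over all shared peaks of the genome. For promoter heights it was 0.61 over the 28 Hox genes with a peak in both libraries and 0.57 over the 14797 such genes in all, so that the Hox promoters moved with the rest. Of the 28, 27 were higher in replicate 2, and Hoxa13 was the exception, at -0.54. Over the 38 genes Spearman's rho of the heights in the libraries was 0.96. The rank order of the Hox promoters was therefore much the same in both libraries, and comparisons between them were made within a library.

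**Figure D4:**
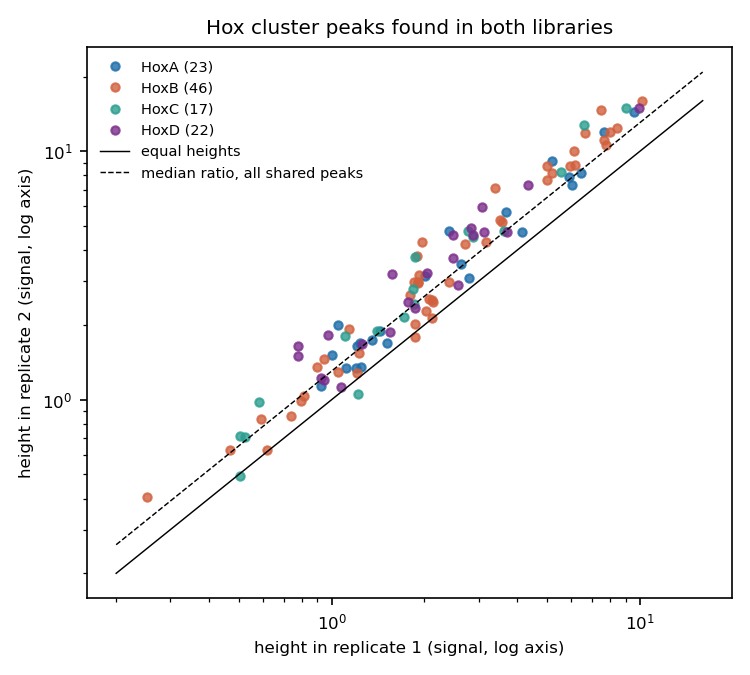
Height of each Hox cluster peak found in both libraries, replicate 1 on the x axis and replicate 2 on the y axis (authors' signal, log axes), coloured by cluster, with a solid line for equal heights and a dashed line for the median log2 ratio of all shared peaks of the genome (0.38). Nearly all points lie above the solid line, and the median log2 ratio of the 4 clusters, 0.55, is above the dashed one.

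The chromatin beside the clusters differed between them. Over 500 kb on each side, counted in bins of 50 kb, HoxC had the most peaks on its 3′ side (8.2 per 50 kb in replicate 1 and 9.5 in replicate 2) and HoxD the fewest on its 5′ side (1.3 and 1.5), where the genome had 2.98 and 3.14. The 3′ and 5′ sides of HoxB had 7.6 and 7.7 and 7.0 and 6.7, and those of HoxA 6.4 and 6.4 and 5.1 and 5.1. The 3′ side of HoxD had 3.6 and 3.8, near the genome's level, and its first 50 kb held no peak in either library. Over 200 kb it had 2.75 and 2.5, below the genome. On the 5′ side of HoxC, next to Hoxc13, the first 2 bins held 1 peak each in each library, while the side as a whole had 5.8 and 4.9 per 50 kb. Both gene-poor sides of HoxD are known as regulatory landscapes that act in the embryonic limbs and genitals.

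**Figure D5:**
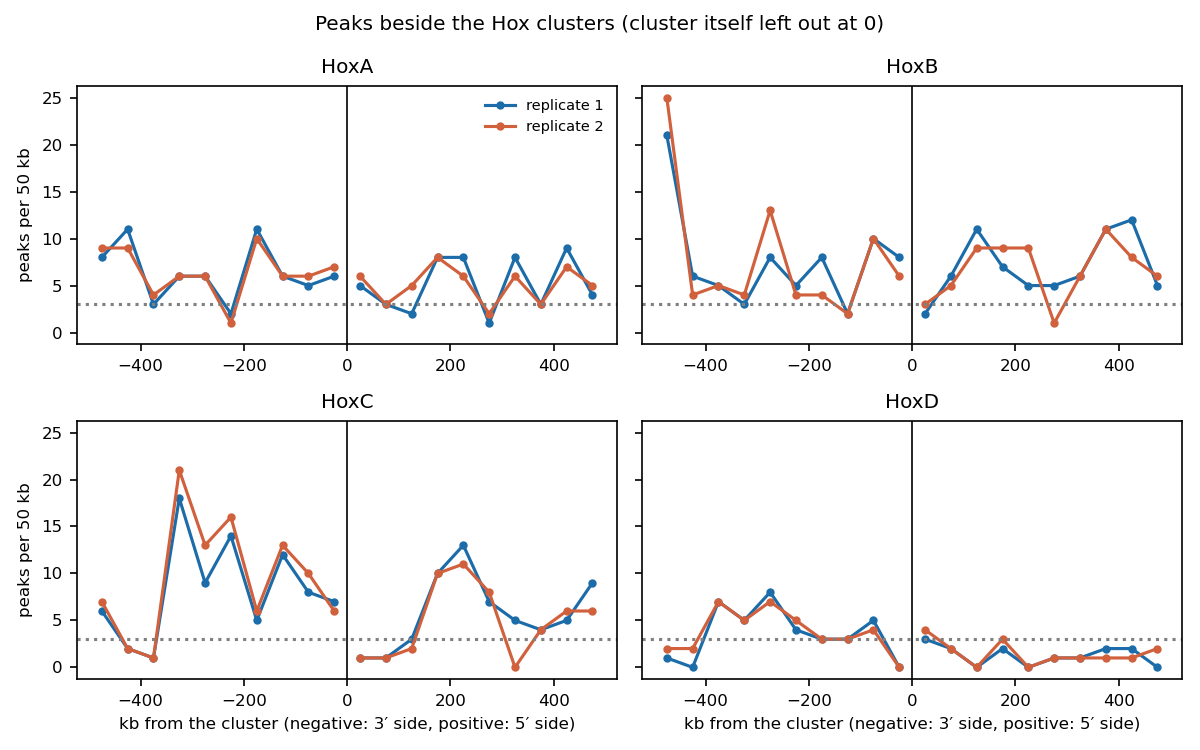
Peaks per 50 kb (y axis) in bins from 500 kb on the 3′ side (negative) to 500 kb on the 5′ side (positive) of each Hox cluster (x axis, kb from the cluster, the cluster itself left out), with 1 line per library and a dotted line at the genome's mean over both libraries. The 5′ side of HoxD stays near or under the dotted line in both libraries, while the 3′ side of HoxC reaches 18 and 21 peaks in 1 bin.

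The clusters also carry microRNA genes that act on Hox messages, among others. Of 5 such genes 2 had a peak within 1 kb of the hairpin in both libraries. They fall in 2 families by the seed, bases 2 to 8 of the mature strand, in capitals here (RefSeq, GRCm38.p6).
miR-10a-5p: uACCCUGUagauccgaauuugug
miR-10b-5p: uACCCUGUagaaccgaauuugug
miR-196a-5p: uAGGUAGUuucauguuguuggg
miR-196b-5p: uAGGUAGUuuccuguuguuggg
Mir196a-1, 6293 bp from the nearest TSS of Hoxb9, had a peak of 5.01 in replicate 1 and 8.75 in replicate 2, taller than most Hox promoters. Mir196a-2, which makes the same mature strand from the stretch between Hoxc10 and Hoxc9, had none within 1 or 2 kb, nor had Mir196b in HoxA. Mir10b had the peak also assigned to Hoxd4, at 1.78 and 2.48. Mir10a had none within 1 kb, and within 2 kb the promoter peak of Hoxb4, at 6.10 and 10.1. Within 1 kb of the hairpins of the miR-196 family, both libraries thus had a peak in HoxB and none in HoxA and HoxC. The tallest peak near Mir196a-1 lay 836 bp from the hairpin in each library, and HoxB was also the cluster with the most peaks per 10 kb. Whether these peaks act on the microRNA genes was not tested.

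Genes for partners and regulators of the Hox genes were open with few exceptions. In a list of 38 genes, replicate 1 showed a promoter peak at 33, replicate 2 at 32 and both at 32, against 67.4% of all genes. The CpG content of the listed genes was not compared. Among all genes of CpG quintiles 3, 4 and 5, 87.1%, 96.9% and 98.9% had a promoter peak in both libraries. All 9 genes of the TALE partners of HOX proteins had one, from Meis3 at 1.32 and 2.23 to Pbx3 at 15.6 and 21.7, which Pknox1 exceeded in replicate 1, at 15.97. So had all 13 Polycomb genes, from Bmi1 at 3.82 and 5.49 to Cbx8 at 20.6 and 29.0, and all 5 trithorax genes, from Ash2l at 5.64 and 9.54 to Kmt2a, the gene of the MLL1 methyltransferase, at 17.5 and 24.9. The 3 retinoic acid receptor genes ranged from Rarb at 6.70 and 7.74 to Rarg at 11.6 and 18.1. The 3 Cdx genes, which switch on posterior Hox genes in the embryo, had no peak in either library. Of the ParaHox genes, distant relatives of the Hox genes, Gsx1 had 3.89 and 6.60, Pdx1 0.598 and 0.583, and Gsx2 none. Evx2, beside Hoxd13, had none, and Evx1, beside Hoxa13, 0.617 in replicate 1 and none in replicate 2.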

How the data were processed

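The authors deposited, for each of the 2 libraries, 2 lists of peaks, a table of false discovery rates and a list of footprints. Per the labels, all are on mm10. Per the text deposited with each sample, each was made from that library alone. No source used here gives the aligner, the peak caller or the thresholds. The deposited peak height is a signal that the authors scaled in an unstated way, and read numbers were not analysed, so heights carry no counting interval. The deposited false discovery rates are q-values listed only under 0.05, and the p-value column of the deposited footprints is 0.01 throughout. Reads of an F1 hybrid placed on the C57BL/6J reference may favour that allele.

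The longer peak list of each library was the main one. TSS came from the basic GENCODE M21 annotation. Genes were put in quintiles by promoter CpG content. A peak within 1 kb of any TSS counted for the gene, and a footprint by its centre. Motifs were searched on both strands of GRCm38.p6 within the listed peaks. The members, lists and motifs were chosen with earlier results of these data known. All Hox genes are named, the tallest and lowest of each regulator group, and the 2 tallest peaks per cluster over 1 kb from a Hox TSS. Of the 39 genes that match the naming rule 1 is not reported here, nor are 1 medulla marker and some promoter sequences. Python 3.11.15, numpy 2.4.6, pandas 2.3.3, scipy 1.17.1 and matplotlib 3.10.9 were used, and the scripts were tested on simulated data.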

Additional observations from a re-analysis of the deposited data

How the results depend on the processing

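Over 29 results and 97 alternatives 74 values were labelled the same and 23 moved. Counts of genes were labelled by their ratio to the main value, and other values by whether they moved by less than the SD of the 2 libraries. Leaving out 1 library always moves a mean of the 2 by less than their SD. Without the settings that leave out a library, 51 of 69 alternatives were the same. The median height of groups 9 to 13, 1.08 over both libraries, was 0.266 with the shorter lists, 1.29 with 2 kb windows, 0.133 with the principal TSS and 0.583 with group 9 left out, and 0.981 to 1.04 in a single library. Peaks per 10 kb with the shorter lists were 1.93 in HoxA, 1.34 in HoxC and 1.91 in HoxD (main values 3.15, 2.29 and 2.94), and 2.57 in HoxD with 10 kb added. The median of positions per promoter was 386 bp, 286 bp at a false discovery rate of 0.001 and 341.5 to 363.5 bp in a single library. The median number of footprints was 3.25, and 3.5 to 4 in a single library. Within 150 bp of the peak centre the CTCF core was in 3.81% and the nuclear receptor repeat in 2.48% of cluster peaks (main values 3.27% and 1.54%). With flanks of 200 kb the peaks per 50 kb were 7.12 and 5.00 on the 3′ and 5′ sides of HoxA, 6.25 and 6.50 for HoxB, 3.62 on the 5′ side of HoxC, and 2.62 and 2.00 for HoxD, whose 3′ side thereby turned from above the genome's level to below it in both libraries. The cause of these shifts was not tested beyond what each setting leaves out. No paired analysis was possible because there is only 1 group. Read depth is unknown here, and the 4 Hox genes with a promoter peak in 1 library had it at 0.533 to 1.82.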
